A study of Mus musculus with 24 samples.

Results

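The antioxidant and metallothionein genes described here were 10 genes chosen by name, Hmox1, Srxn1, Mt1, Mt2, Gclm, Gclc, Nqo1, Txnrd1, Sod1 and Sod2, out of 21154 named genes on a mouse gene expression array. They were read by 12 of its 55681 probes, because Hmox1 and Mt1 had a second probe. RNA came from thymocytes of C57BL/6J mice a few weeks old, with no engineered allele in any group. Thymuses were dispersed and passed through a cell strainer to isolate thymocytes, and the methods name no sorting step. The 24 arrays formed 8 groups of 3, 1 for each sex under each of 4 treatments. Controls were not irradiated. The low dose was 0.075 Gy of X-rays, the high dose was 1.75 Gy of gamma rays, and RAR (the radioadaptive response schedule) gave the low dose first and the high dose 6 h later. The sample descriptions speak of irradiated thymocytes, whereas the methods speak of irradiated mice, and the time from irradiation to harvest was not given in the sources used here. On every array the sample was labelled with Cy5 and a universal mouse reference RNA with Cy3, so a value below is log2 of sample over reference, and differences between groups do not depend on the reference.

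Reactive oxygen species left by ionizing radiation are handled by several enzyme systems. The transcription factor NRF2 binds antioxidant response elements and drives genes for glutathione synthesis, the thioredoxin system, quinone reduction and heme breakdown. Metallothioneins are small cysteine-rich proteins that hold zinc and copper, and the factor MTF1 induces their genes through metal response elements when zinc is released. Superoxide dismutases convert superoxide to hydrogen peroxide in the cytosol (Sod1) and in mitochondria (Sod2). In a bulk sample, fewer cells of a type and less RNA per cell cannot be told apart.

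Sample signal was well above background for 49.3% to 62.8% of probes on 22 arrays, and for 34.7% and 71.8% on 2 female RAR arrays that stood apart (replicates 3 and 2). No result for the 10 genes in the 5 treatment comparisons changed its direction or its side of the threshold without those 2 arrays. All 14 thymocyte marker genes tested, among them Cd3e, Lck, Rag1 and Ptcra, were well above background on all 24 arrays. The brighter probe of 8 of the 10 genes was well above background on all 24 arrays too, that of Gclm on 23 and that of Nqo1 on 20. By the methods each irradiated group was made up of 3 animals, and the labels call the 3 samples of a group independent.

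Promoter windows from RefSeq (GRCm38.p6, the 250 bases before the gene start) are shown for Mt2 and Srxn1. Both genes rose at every dose, and their windows share motif types but differ in the number of matches to each. Capitals mark each match, on either strand, to the metal response element core (TGCACNC or TGCGCNC), to the antioxidant response element core (TGACNNNGC) or to the AP-1 site (TGACTCA). The Mt2 window is chr8:94172368-94172617 and the Srxn1 window is chr2:152105274-152105523, both on the plus strand.
Mt2: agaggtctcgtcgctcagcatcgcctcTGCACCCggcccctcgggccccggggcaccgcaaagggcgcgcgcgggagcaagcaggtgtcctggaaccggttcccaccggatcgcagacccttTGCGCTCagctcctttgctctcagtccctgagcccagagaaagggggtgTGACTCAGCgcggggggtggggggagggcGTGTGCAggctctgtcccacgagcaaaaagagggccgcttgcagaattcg
Srxn1: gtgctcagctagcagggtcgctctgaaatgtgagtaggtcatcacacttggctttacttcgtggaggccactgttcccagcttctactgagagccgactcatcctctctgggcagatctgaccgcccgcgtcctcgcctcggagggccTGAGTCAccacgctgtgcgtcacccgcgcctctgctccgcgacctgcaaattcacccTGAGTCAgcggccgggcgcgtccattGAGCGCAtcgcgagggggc
The Mt2 window held 3 matches to the metal response element, as 1.26% of the 32851 windows of this length did at least. It also held 1 match to the antioxidant response element, which overlaps its 1 AP-1 match. The Srxn1 window held 2 AP-1 matches, as 0.167% of windows did at least, and 1 metal response element match. It held no match to TGACNNNGC. Its AP-1 match nearer the gene start reads TGAGTCAgc with the bases after it, and the search did not take in TGAG in place of TGAC. Whether that stretch acts as an antioxidant response element was not tested. At least 1 match was present in 21.4% of windows for the metal response element, in 10.2% for the antioxidant response element and in 4.46% for AP-1. Windows of 8 of the 10 genes were matched by symbol, not those of Hmox1 and Gclc. Genes that did not rise held matches too. The Gclm window, of a gene lower after every treatment, held 2 metal response element matches and 1 antioxidant response element match. The Sod1 window and 1 of the Txnrd1 windows each held 1 antioxidant response element match. The Mt1 window held 1 metal response element match and no match to the other motifs. A match is a description of letters, and binding was not measured.

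Hmox1, Srxn1, Mt1 and Mt2 were higher than control after the low dose, after the high dose and most of all after RAR, in females and in males. In this account a gene is past the threshold when the limma p, adjusted over all probes, is under 0.05 and the change is at least 1.5-fold. After the low dose 4 of the 10 genes were higher and 1 was lower by that rule, where 5.18% of all named genes were higher and 6.33% lower. After the high dose 4 were higher and 2 lower, against 5.97% and 7.36% of all genes. After RAR 4 were higher and 1 lower, against 13.3% and 17.6% of all genes. By overlap alone, 4 of the 10 genes lay above all control arrays and 3 below them after the low dose (6.24% and 12.4% of all genes), 4 above and 4 below after the high dose (7.45% and 13.5%), and 4 above and 3 below after RAR (12.4% and 22.8%). The median change over the 10 genes was -0.11 after the low dose, -0.12 after the high dose and 0.15 after RAR on the log2 scale, beside -0.04, -0.05 and -0.08 over all genes.

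Hmox1 encodes heme oxygenase 1, which breaks heme down to biliverdin, iron and carbon monoxide. Its log2 ratio in the 6 control arrays ran from -3.16 to -2.96 with a median of -3.06. In the low dose arrays it ran from -1.86 to -1.502 (median -1.66) and in the high dose arrays from -1.77 to -1.34 (median -1.49). In the RAR arrays it ran from -0.42 to 0.36 (median -0.25). No treated array overlapped the controls and no RAR array overlapped either single dose, while the arrays of the single doses overlapped each other. Hmox1 rose 2.63-fold after the low dose (log2 change 1.39 ± 0.10 SE, adjusted p = 1.11e-08), 2.88-fold after the high dose (1.53, adjusted p = 2.82e-09) and 7.43-fold after RAR (2.89, adjusted p = 2.79e-13). RAR was 2.58-fold above the high dose (adjusted p = 2.24e-08) and 2.83-fold above the low dose (adjusted p = 5.61e-09). The second Hmox1 probe rose less, by 0.69, 1.03 and 1.95 on the log2 scale after low dose, high dose and RAR, and all 3 changes were past the threshold.

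Srxn1 encodes sulfiredoxin, which restores over-oxidised peroxiredoxins. Its log2 ratio ran from -3.65 to -3.38 in control arrays (median -3.56), from -2.99 to -2.59 after the low dose (median -2.75) and from -2.62 to -2.38 after the high dose (median -2.496). After RAR it ran from -1.92 to -1.09 (median -1.83), and the highest of these arrays was a male one. The RAR arrays overlapped no array of another treatment. Srxn1 rose 1.68-fold after the low dose (log2 change 0.75 ± 0.10 SE, adjusted p = 2.27e-05), 2.03-fold after the high dose (1.02, adjusted p = 5.47e-07) and 3.54-fold after RAR (1.82, adjusted p = 1.06e-10).

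The metallothionein genes Mt1 and Mt2 lie next to each other on chromosome 8. Mt1 ran from -3.25 to -2.95 in control arrays (median -2.99), from -2.48 to -2.21 after the low dose (median -2.36), from -2.47 to -1.86 after the high dose (median -2.07) and from -1.66 to -1.15 after RAR (median -1.47). Mt2 ran from -4.48 to -4.11 in control arrays (median -4.24), from -3.35 to -2.96 after the low dose (median -3.20), from -3.38 to -2.63 after the high dose (median -2.89) and from -2.57 to -1.67 after RAR (median -2.08). For both genes the RAR arrays lay above every array of the other treatments and the control arrays lay below all of them. Mt2 rose 2.14-fold after the low dose (log2 change 1.098 ± 0.09 SE, adjusted p = 1.42e-07), 2.55-fold after the high dose (1.35, adjusted p = 9.32e-09) and 4.56-fold after RAR (2.19, adjusted p = 4.90e-12). The rises of Mt1 were 1.63-fold (adjusted p = 4.41e-06), 1.94-fold (adjusted p = 1.01e-07) and 3.05-fold (adjusted p = 3.81e-11) in the same order. A dimmer second Mt1 probe, well above background on 23 arrays, rose by 0.85 and 0.87 after the single doses and by 0.53 after RAR (adjusted p = 0.0219, under 1.5-fold), and its RAR values did not pass the threshold against either single dose. As a mean of both probes, Mt1 under RAR was 0.16 above the high dose (adjusted p = 0.275) and 0.29 above the low dose (adjusted p = 0.0346), calls that were lost.

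**Figure D1:**
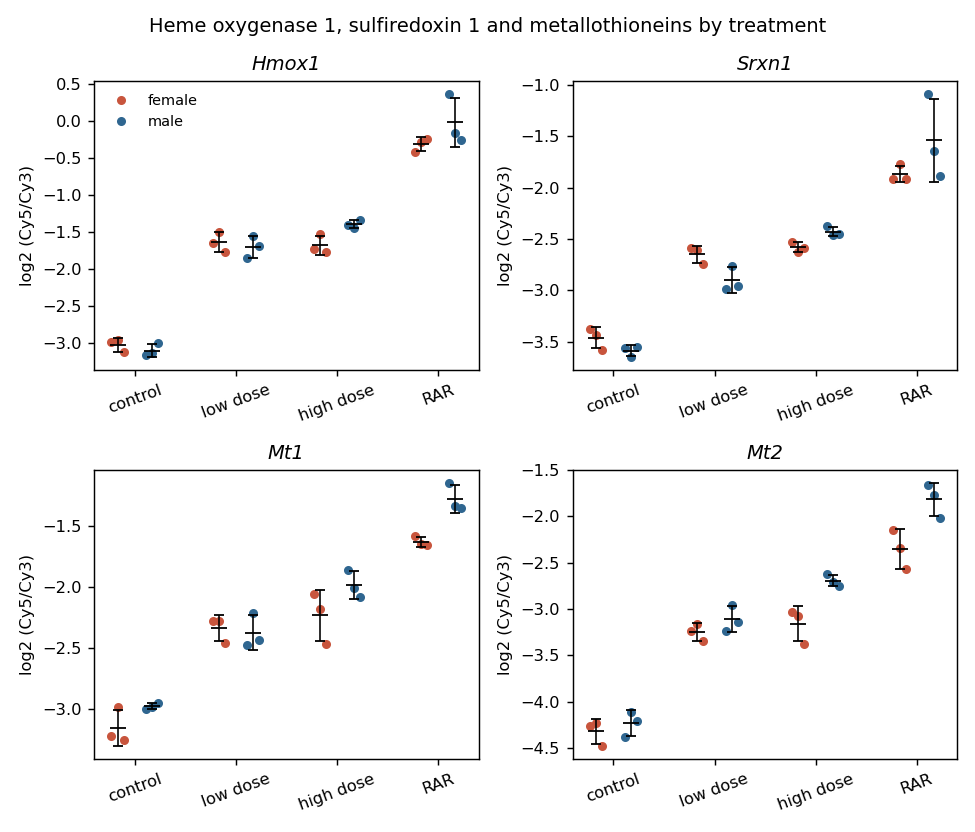
Log2 ratio of sample over reference RNA (y axis) for Hmox1, Srxn1, Mt1 and Mt2 on each array by treatment (x axis), with points for single arrays (red female, blue male) and bars for the mean ± SD of the 3 arrays of a sex. For Hmox1 every RAR array, from -0.42 to 0.36, sits above every single dose array, and every single dose array sits above the controls.

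Each of these 4 genes was past the threshold in all 5 treatment comparisons, in females alone and in males alone, with no overlap between the arrays compared. The share of all genes that rose was 4.91% in females and 3.68% in males after the low dose, 4.32% and 5.89% after the high dose, and 10.5% and 13% after RAR. It was 5.13% and 4.68% for RAR against the high dose and 3.35% and 7.03% for RAR against the low dose. The exact two-sided permutation test of each rise within sex gave p = 0.005, the smallest that 400 arrangements allow. Against the high dose, RAR was higher by 0.84 for Mt2, 0.80 for Srxn1 and 0.65 for Mt1 on the log2 scale. Against the low dose it was higher by 1.09 for Mt2, 1.07 for Srxn1 and 0.90 for Mt1. A graded pattern, with both single doses past the threshold above control and RAR past the threshold above both, was met by 4 of the 10 genes and by 2.04% of all genes. This pattern was not among the planned comparisons. The 10 genes were chosen with earlier results of these data known, so these shares describe the list and test nothing. RAR against the high dose called 5 of the 10 genes higher and 0 lower, where 6.64% and 4.68% of all genes were called, and RAR against the low dose called 4 higher and 0 lower, where 6.37% and 5.45% were. By overlap alone, 6 of the 10 genes lay above all high dose arrays under RAR and 0 below (6.69% and 8.67% of all genes), and 4 lay above all low dose arrays and 1, Sod1, below (6.07% and 10.4%).

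The arrays lay on 3 slides of 8, with all female controls on 1 slide and all female high dose arrays on another, so values were also taken within slides that held both sides of a comparison. Within slides Hmox1 differed from control by 1.28 and 1.60 after the low dose, by 1.77 after the high dose and by 3.52 after RAR. The values of 1.60 and 3.52 came from 1 male array on each side, and that of 1.77 from 2 male arrays against 1. No female high dose or RAR array shared a slide with a female control. In females these changes from control could therefore not be taken within a slide. RAR exceeded the high dose within slides by 1.26 and 1.75 for Hmox1, 0.82 and 1.06 for Mt2, 0.67 and 1.37 for Srxn1, and 0.57 and 0.90 for Mt1. The dimmer second probe of Mt1 went the other way, at -0.34 and -0.77 against the high dose, -0.53 against the low dose and -0.32 against control. With slide as a block the RAR changes from control were 2.96 for Hmox1, 2.11 for Mt2, 1.83 for Srxn1 and 1.49 for Mt1, all past the threshold.

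Markers of other cells moved in the same samples. The mean log2 ratio over 13 myeloid markers ran from 0.53 to 1.23 in control arrays, from 0.95 to 1.17 after the low dose, from 0.98 to 1.47 after the high dose and from 1.67 to 2.53 after RAR. Every one of the 13 was well above background on some array of each treatment. After RAR 9 of the 13 were higher than control and 1 lower, where 13.3% of all genes were higher and 17.6% lower. Cd14, a co-receptor for bacterial lipopolysaccharide, was up by 4.04 and Csf1r, the macrophage growth factor receptor, by 1.57 on the log2 scale. Timd4 was lower by 1.51 and the complement genes C1qa, C1qb and C1qc did not pass the threshold. Over 9 neutrophil markers the mean was 3.04 in controls and 3.67, 3.55 and 3.54 after low dose, high dose and RAR. The list split after RAR, with 4 of the 9 higher than control and 3 lower. After the low dose 5 were higher and 0 lower (5.18% and 6.33% of all genes), and after the high dose 3 and 0 (5.97% and 7.36%). Over 12 proliferation markers the mean was -0.07 in controls and -0.23, -0.27 and -0.85 after the same treatments. Thymocyte markers averaged 5.14 in controls and 5.28 after RAR. Over 11 epithelial markers the mean ran from 0.6163 to 1.00 in control arrays. It averaged 0.154, 0.153 and 0.156 after low dose, high dose and RAR. The highest treated array, a male RAR one at 0.6157, lay just under the lowest control. Of the 11, 3 were higher and 5 lower than control after RAR, and 1 was higher and 3 lower after each single dose, beside the same shares of all genes. Psmb11, Foxn1 and Aire were well above background on no low dose array. Over 9 stromal markers it was -2.88 in controls and -3.21, -3.27 and -3.15 after the same treatments, with overlapping arrays. The part of these cells in the rise of Hmox1, Srxn1, Mt1 and Mt2 was not tested.

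**Figure D2:**
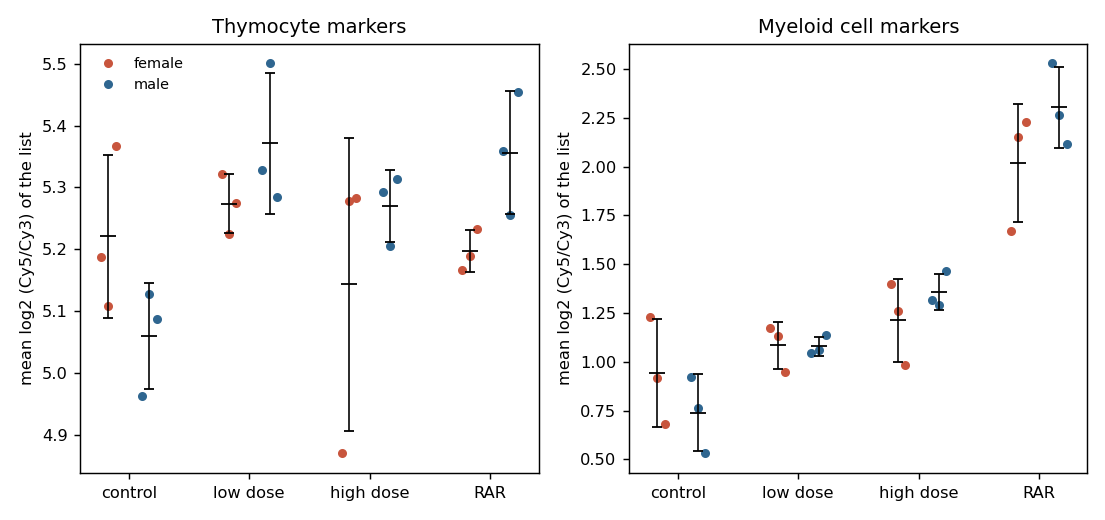
Mean log2 ratio of sample over reference (y axis) over the thymocyte markers and over the myeloid markers on each array by treatment (x axis), with points for arrays (red female, blue male) and bars for the mean ± SD of the 3 arrays of a sex. The myeloid mean of the RAR arrays, 1.67 to 2.53, lies above that of every other array, while the control and single dose arrays overlap.

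Gclm, the modifier subunit of glutamate-cysteine ligase, the first enzyme of glutathione synthesis, was lower than control after every treatment. Its log2 ratio ran from -2.12 to -1.90 in control arrays (median -1.96), from -3.94 to -2.60 after the low dose (median -2.91), from -3.22 to -2.47 after the high dose (median -2.91) and from -3.14 to -2.59 after RAR (median -2.82). No treated array reached the lowest control, while the treated groups overlapped one another. Gclm fell by 1.06 ± 0.16 (SE) after the low dose (2.08-fold lower, adjusted p = 0.000114), by 0.90 after the high dose (1.87-fold lower, adjusted p = 0.000433) and by 0.86 after RAR (1.82-fold lower, adjusted p = 0.00028) on the log2 scale. RAR and the high dose differed by 0.04, with a 95% interval from -0.31 to 0.38. Gclm was a dim probe, and with background corrected another way (normexp) its changes were -0.33, -0.31 and -0.19, under 1.5-fold. Within slides the changes from control were -0.83 and -1.12 after the low dose, -1.09 after the high dose and -0.88 after RAR. Of these only -1.12 included females. The mean over the epithelial markers was lower in the same treated arrays, though some of these markers rose. The part of epithelial cells in the lower values of Gclm was not tested.

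Gclc, the catalytic subunit of the same enzyme, had no change from control past the threshold. Its log2 ratio ran from -0.38 to -0.06 in control arrays, from -0.43 to -0.17 after the low dose, from -0.32 to -0.15 after the high dose and from -0.22 to 0.04 after RAR, and all groups overlapped. Its changes from control were -0.07, 0.01 and 0.12 after low dose, high dose and RAR. RAR lay 0.20 above the low dose (adjusted p = 0.0293), under 1.5-fold.

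Nqo1 encodes NAD(P)H quinone dehydrogenase 1, which reduces quinones. Its log2 ratio ran from -4.12 to -3.28 in control arrays (median -3.47), from -4.12 to -3.21 after the low dose (median -3.87), from -5.27 to -3.86 after the high dose (median -4.20) and from -3.83 to -3.04 after RAR (median -3.48). The RAR arrays lay above all high dose arrays and overlapped the control and the low dose arrays. Nqo1 was 1.88-fold higher under RAR than after the high dose (log2 difference 0.91, adjusted p = 0.0053), with within-slide differences of 1.18 and 0.26. It was 1.67-fold lower than control after the high dose (log2 change -0.74 ± 0.22 SE, adjusted p = 0.0182), with overlapping groups. That call was lost with slide as a block (-0.95, adjusted p = 0.157), without female control replicate 3 (-0.66, adjusted p = 0.0521), without female high dose replicate 2 (-0.54, under 1.5-fold) and with normexp (-0.19, adjusted p = 0.0881). With quantile normalization the difference between RAR and the high dose was 0.63 (adjusted p = 0.0706), so the calls on this dim gene depended on the processing, and with normexp that difference was 0.48, under 1.5-fold.

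Txnrd1 encodes the cytosolic thioredoxin reductase, which keeps thioredoxin reduced with NADPH. Its log2 ratio ran from -0.92 to -0.74 in control arrays, from -1.36 to -1.15 after the low dose, from -1.30 to -1.10 after the high dose and from -1.25 to -0.995 after RAR, so all treated arrays lay below the controls. The changes of -0.34, -0.34 and -0.24 had adjusted p = 0.00019, 0.000204 and 0.0018 and were under 1.5-fold.

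Sod1, the cytosolic copper and zinc superoxide dismutase, ran from -0.67 to -0.36 in control arrays, from -0.72 to -0.60 after the low dose, from -0.83 to -0.71 after the high dose and from -0.94 to -0.77 after RAR. It was lower by 0.24 after the high dose (adjusted p = 0.00184) and by 0.34 after RAR (adjusted p = 3.18e-05), under 1.5-fold in each. Sod2, the mitochondrial manganese enzyme, ran from -0.94 to -0.83 in control arrays, from -1.40 to -1.14 after the low dose and from -1.46 to -1.25 after the high dose. After RAR it ran from -1.18 to -0.84, back over the control values. Sod2 differed from control by -0.38 after the low dose (adjusted p = 0.000107), by -0.45 after the high dose (adjusted p = 1.37e-05) and by -0.09 after RAR (adjusted p = 0.245), and RAR lay 0.36 above the high dose (adjusted p = 0.000251). All of these were under 1.5-fold.

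**Figure D3:**
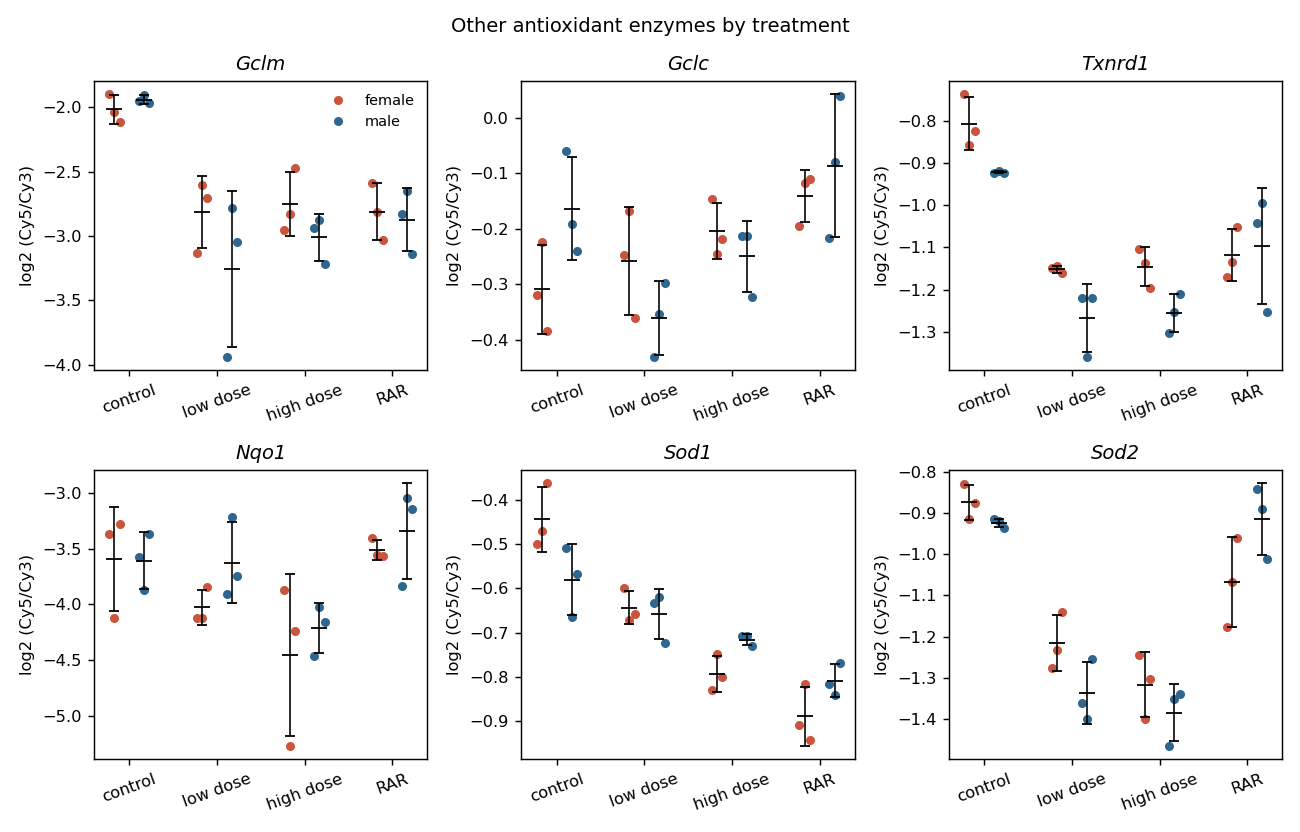
Log2 ratio of sample over reference (y axis) for Gclm, Gclc, Nqo1, Txnrd1, Sod1 and Sod2 on each array by treatment (x axis), with points for arrays (red female, blue male) and bars for the mean ± SD of the 3 arrays of a sex. Gclm lies at or below -2.47 on every treated array and at or above -2.12 on every control array, while Sod2 is lower after the single doses and overlaps the controls after RAR.

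**Figure D4:**
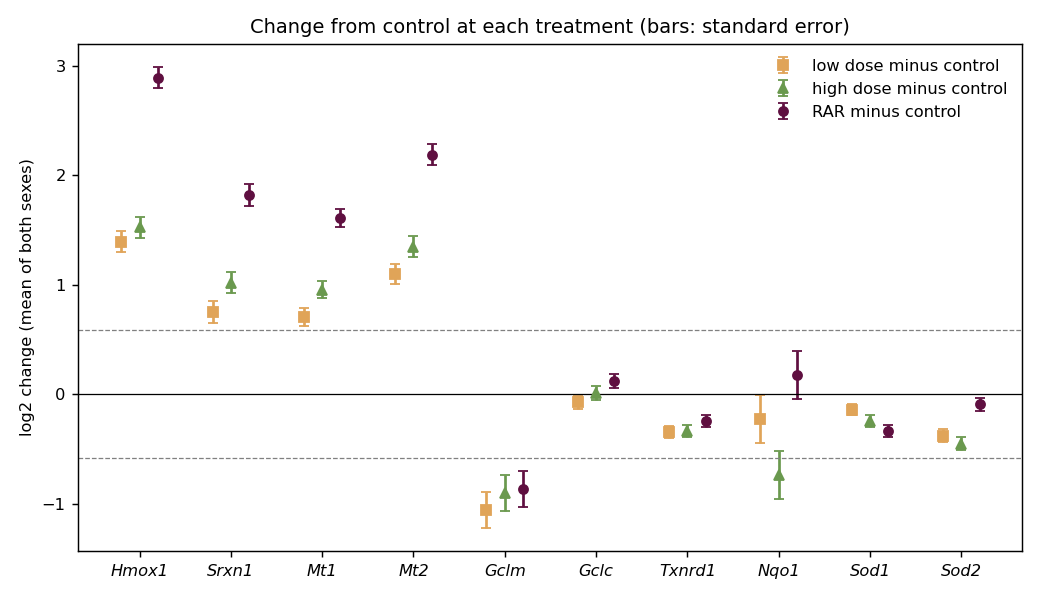
Log2 change from control (y axis, averaged over the sexes) with its standard error for each of the 10 genes (x axis) after the low dose, the high dose and RAR, with dashed lines at 1.5-fold in each direction. Hmox1, Mt2, Srxn1 and Mt1 lie past the upper line at every treatment with RAR farthest out, and Gclm lies past the lower line at every treatment.

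High dose minus low dose, a comparison added after the values were seen, called 0 of the 10 genes by limma, as it did 0.00473% of all genes. At an unadjusted p under 0.05 it held 4 of the 10 genes, Mt1, Mt2, Nqo1 and Srxn1, and 6.78% of all genes. The difference was 0.13 for Hmox1 (95% interval -0.07 to 0.33), 0.27 for Srxn1 (0.06 to 0.48), 0.25 for Mt1 (0.08 to 0.42), 0.25 for Mt2 (0.06 to 0.45), 0.15 for Gclm (-0.19 to 0.50) and -0.51 for Nqo1 (-0.97 to -0.05).

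RAR combines both doses, so its change can be set against the sum of the single-dose changes on the log2 scale, a second comparison added after the values were seen. Harvest times were not given, so whether each single dose was sampled as long after exposure as in RAR is not known. That limits the sum, RAR against either single dose and the high dose against the low dose. For the 4 genes that rose, each read by its brighter probe, the interval of the departure from that sum included 0. The departure from the sum was -0.02 for Hmox1 (95% interval -0.31 to 0.26), 0.05 for Srxn1 (-0.24 to 0.35), -0.05 for Mt1 (-0.30 to 0.19) and -0.26 for Mt2 (-0.53 to 0.02), none past the threshold. With both Mt1 probes averaged the departure of Mt1 was -0.62 (adjusted p = 0.00459), below the sum and past the threshold. The single-dose changes share their controls with the RAR change, and the fit accounts for this in the standard error.

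Gclm, Nqo1 and Sod2 lay above the sum. The departure was 1.09 ± 0.23 (SE) for Gclm (adjusted p = 0.00457), 1.14 ± 0.31 for Nqo1 (adjusted p = 0.0237) and 0.74 ± 0.08 for Sod2 (adjusted p = 1.04e-05). For Gclm the RAR change was -0.86, beside -1.06 and -0.90 after the single doses, and Nqo1 and Sod2 did not pass the threshold against control under RAR. Of all genes 7.76% departed from the sum in either direction and 4.52% lay above it. Without the 2 female RAR arrays that stood apart the departure of Nqo1 was 1.19 (adjusted p = 0.0664). The departures of Gclm and Nqo1 did not pass the threshold with normexp (0.45 and 0.46, under 1.5-fold) or with quantile normalization (0.83, adjusted p = 0.101, and 0.93, adjusted p = 0.131), while that of Sod2 did. Txnrd1 departed by 0.44 (adjusted p = 0.00134), under 1.5-fold.

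**Figure D5:**
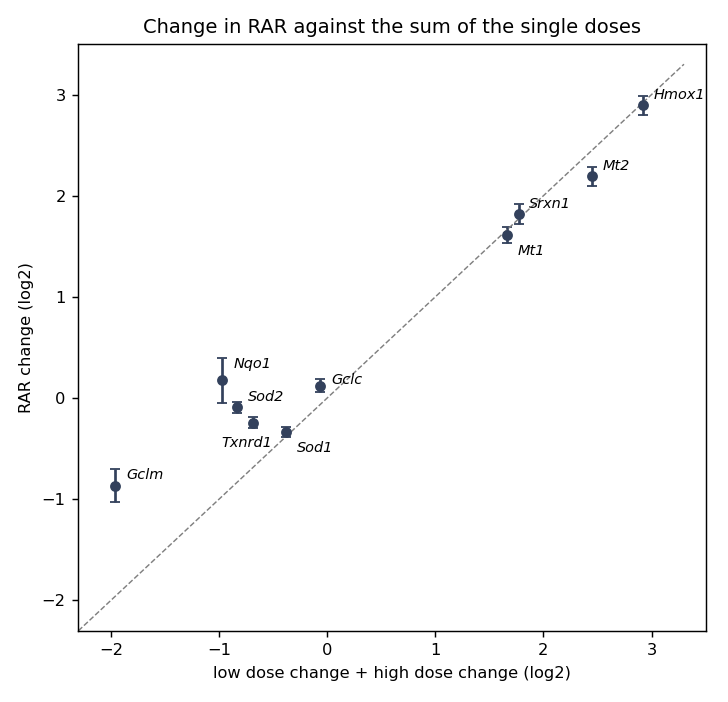
RAR change from control (y axis, log2) against the sum of the low dose and high dose changes (x axis, log2) for the 10 genes, with bars for the standard error of the RAR change and the dashed line where both are equal. Hmox1, Srxn1, Mt1 and Mt2 lie near the line, and Gclm, Nqo1, Sod2 and Txnrd1 lie above it.

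The rises were present in each sex, though no female RAR or high dose array shared a slide with a female control. Hmox1 rose after RAR by 2.71 in females and 3.08 in males on the log2 scale, Srxn1 by 1.60 and 2.05, Mt1 by 1.52 and 1.70, and Mt2 by 1.96 and 2.42. The RAR change of Gclm was -0.79 in females and -0.93 in males. Male minus female RAR called 0 of the 10 genes, where 0.288% of all genes were called by limma. At an unadjusted p under 0.05 it held 4 of the 10 and 13.7% of all genes. The difference was largest for Mt2 among the 10 genes, at 0.54 ± 0.13 SE (adjusted p = 0.102). It was 0.35 for Mt1 (adjusted p = 0.229), 0.33 for Srxn1 (adjusted p = 0.368) and 0.29 for Hmox1 (adjusted p = 0.407). Without male RAR replicate 1 the difference was 0.10 for both Srxn1 and Hmox1, and Srxn1 was at 0.498 without male RAR replicate 3. The interaction of sex and treatment called 0 of the 10 genes and 0% of all genes, so the count does not set the 10 apart. Of the 10, 1, Srxn1, had an unadjusted p under 0.05 by the limma F-test (0.0383, adjusted p = 0.755), where 6.6% of all genes did.

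Hmox1, Srxn1, Mt1 and Mt2 varied together over the 24 arrays, with Pearson's r from 0.963 to 0.988 between pairs. Within groups r was 0.474 to 0.825, and the arrays of a treatment share that treatment, so the first range describes the treatments. Among 14506 genes compared over the 24 arrays, those most like Hmox1 were the chemokine genes Ccl7 (r = 0.990) and Ccl9 (r = 0.990) and the gene Litaf (r = 0.989). Those most like Mt2 were Wdr92 (r = 0.987), Apobec1 (r = 0.977), which encodes an RNA-editing cytidine deaminase, and Jun (r = 0.975), which encodes an AP-1 subunit.

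Of 90 other genes of oxidative stress defence, iron and zinc, 9 were higher and 8 lower after the high dose (10% and 8.89%, beside 5.97% and 7.36% of all genes). After the low dose 6 were higher and 7 lower (6.67% and 7.78%, beside 5.18% and 6.33%), near the shares of all genes. After RAR 22 were higher and 14 lower (24.4% and 15.6%, beside 13.3% and 17.6%). RAR against the high dose called 15 higher and 2 lower (16.7% and 2.22%, beside 6.64% and 4.68%), and RAR against the low dose 15 higher and 4 lower (16.7% and 4.44%, beside 6.37% and 5.45%). These counts describe the lists and were given no test. The median change over the 90 genes was -0.07, -0.08, 0.02, 0.15 and 0.13 in these 5 comparisons. Where a gene below is not among the 3 largest rises or falls of a comparison, it was named after its values were seen. With normexp 10 of the 14 falls under RAR, those of Gpx3, Slc7a11, Txnl1, Prdx2, Prdx3, Mtf2, Mt4, Slc30a5, Slc39a10 and Idh1, and 1 of the 22 rises, that of Cybb, were no longer past the threshold, and no direction turned. With Cy5 alone 4 rises, those of Abcc1, Ephx1, Nfe2l2 and Slc48a1, and 2 falls were lost, where the median of all probes moved by 0.523. With quantile normalization 3 rises, those of Bach2, Cybb and Mgst1, and 2 falls, those of Prdx2 and Prdx3, were lost.

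Of 12 genes of heme and iron handling 6 were higher and 1 lower after RAR (50% and 8.33%, beside 13.3% and 17.6% of all genes). Hp, which encodes the hemoglobin-binding protein haptoglobin, was up by 2.03 after the low dose, 2.25 after the high dose and 2.92 after RAR on the log2 scale. Slc11a1, a metal transporter of phagocyte vesicles, was up by 2.43 after RAR, and the ferritin subunit genes Fth1 and Ftl1, which store iron, were up by 1.15 and 1.06. Slc48a1, a heme transporter, was up by 0.66. Slc40a1 encodes ferroportin, which exports iron. It was lower by 1.17 after the low dose and by 1.01 after the high dose, the latter a call lost under slide as a block (-0.98, adjusted p = 0.0538), and it was higher by 0.86 after RAR, 1.87 above the high dose. Tfrc, the transferrin receptor through which cells take iron up, was lower by 0.80, 0.85 and 1.29 after low dose, high dose and RAR, the first under 1.5-fold with normexp (-0.58).

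Of 10 NRF2 regulators 3 were higher and 0 lower after RAR, where 13.3% of all genes were higher and 17.6% lower. Nfe2l2, which encodes NRF2 itself, was up by 0.71, its partner Mafg by 1.05 and the repressor gene Bach2 by 0.76, though Bach2 was not past the threshold as a mean over all its probes (0.29, adjusted p = 0.395). Among 13 genes of NADPH supply and other NRF2 targets 3 rose and 2 fell after RAR (23.1% and 15.4%). Osgin1, an oxidative stress induced growth inhibitor, was up by 2.50, Ephx1 (epoxide hydrolase) by 0.93 and the exporter gene Abcc1 by 0.66. The NADPH-forming isocitrate dehydrogenase gene Idh1 was lower by 1.23 and the transketolase gene Tkt by 0.72, after 0.81 lower at the high dose.

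Of 18 glutathione genes 3 rose and 2 fell after RAR (16.7% and 11.1%), near or below the 13.3% and 17.6% of all genes. Chac1, whose product degrades glutathione, was up by 1.27, Glrx (glutaredoxin) by 0.77 and Mgst1, a microsomal glutathione transferase, by 0.75. The cystine transporter gene Slc7a11 was lower by 0.86 than control, a call lost under slide as a block (-0.46, adjusted p = 0.414), and by 1.13 than after the high dose. It was 0.78 lower than after the low dose, a call lost under slide as a block (-0.53, adjusted p = 0.326) and without the 2 female RAR arrays that stood apart (-0.56, adjusted p = 0.115). Gpx3, the secreted glutathione peroxidase, was lower by 1.26 (adjusted p = 0.0264), a call lost under slide as a block (-1.72, adjusted p = 0.0969). It was also lost when any 1 of 6 arrays was left out, female RAR replicate 3 (-0.85, adjusted p = 0.076), female control replicates 1 and 2, male control replicate 2 and male RAR replicates 2 and 3 (-1.07, -1.13, -1.17, -1.19 and -1.19). Of 16 thioredoxin and peroxiredoxin genes 2 rose and 3 fell (12.5% and 18.8%), about the shares of all genes. Those that rose were Sesn2 (sestrin 2) by 1.503 and Msrb1, a methionine sulfoxide reductase, by 1.33. The genes Txnl1, Prdx2 and Prdx3 fell by 1.00, 0.64 and 0.65. Txnip, whose product binds thioredoxin, was up by 0.74 after each single dose.

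Of 9 genes of superoxide production and removal 4 rose and 1 fell after RAR (44.4% and 11.1%, beside 13.3% and 17.6% of all genes). Subunit genes of the phagocyte NADPH oxidase were among those that rose, Ncf4 by 1.54, Ncf1 by 1.03 and Cybb by 0.84, and the call of Cybb was lost without the 2 female RAR arrays (0.49, adjusted p = 0.251). It was also lost when any 1 of 7 arrays was left out, female RAR replicate 3 (0.58, adjusted p = 0.0891), female control replicates 1 and 3 (0.71 and 0.84), male RAR replicates 1 and 2 (0.81 and 0.79) and male control replicates 1 and 3 (0.78 and 0.73). The catalase gene Cat was up by 1.47, and by 0.23 (adjusted p = 0.115) as a mean over all its probes. Park7 fell by 0.77. Of 12 genes listed under zinc and copper 1 rose and 5 fell (8.33% and 41.7%). The zinc exporter gene Slc30a1 was up by 0.81, while the importer genes Slc39a6 and Slc39a10 were lower by 0.94 and 1.07 and the transporter gene Slc30a5 by 0.65. Mtf2, counted in that list though it encodes no metal transporter or metallothionein, was lower by 0.71. Mt4, a metallothionein gene of the same cluster as Mt1 and Mt2, was lower by 1.09, opposite in direction to both, a call lost under slide as a block (-0.76, adjusted p = 0.0988).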

How the data were processed

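Gene expression was measured on 24 Agilent two-colour arrays of 1 design (probes placed on mm9). The files hold scanner output (Feature Extraction 11.5.1.1 per the file headers), with intensities that the authors had background-subtracted and dye-normalized, and a deposited table of log2 ratios whose column medians ran from -0.137 to 0.0871 and which matched log2 of Cy5 over Cy3 of these intensities within 0.01 for 100% of values. Here log2(Cy5/Cy3) was taken from the processed intensities, without control and outlier spots (183 to 368 an array), and the spots of a probe were averaged. No spot was saturated, and the number of arrays limits the precision. No dyes were swapped, so a dye effect stays in the level of a gene and drops out of differences.

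Groups followed the labels. limma 3.58.1 (R 4.3.3) was fitted to 8 group means over 24 arrays (16 residual degrees of freedom), and treatment contrasts averaged the sexes. Benjamini-Hochberg adjustment ran over all 55681 probes, of which 653 lacked a value on some array. Each gene was read by its probe with the highest mean Cy5. Single values had an exact two-sided permutation test within sex. The fit was tested on simulated data. Promoter windows and chromosomes came from RefSeq tables.

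The 10 genes, the other gene lists and the markers were chosen with earlier results of these data known. From the other lists, the 3 largest rises and 3 largest falls of each comparison were named if well above background on all arrays of the brighter side, and for Hmox1 and Mt2 the 3 genes most correlated over the arrays. Alternatives were normexp (offset 50) with loess, quantile normalization, Cy5 alone, the deposited table, a filter on dim probes, all probes of a gene averaged, each probe's most distant array in a group dropped, a larger fold threshold, a slide block, a replicate block, each array left out in turn and, chosen after seeing the data, 2 female RAR arrays left out.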

Additional observations from a re-analysis of the deposited data

Results flagged for a closer look

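Gclc changed in opposite directions in the sexes after the high dose, by 0.11 in females and by -0.09 in males on the log2 scale. The male change minus the female change was -0.19 ± 0.12 SE (-0.1914, limma adjusted p = 0.772), so the difference between the sexes did not pass the threshold.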

How the results depend on the processing

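Hmox1, Srxn1, Mt1 and Mt2 kept their direction in the 5 treatment comparisons under all alternatives, and the deposited table, the filter on dim probes and the replicate block changed none of 69 results on the 10 genes. With a log2 change over 1.5 asked for, the count of the 10 genes was 0 for RAR minus high dose, 1 for RAR minus low dose, 1 for the high dose, 0 for the low dose and 0 for the departure from the sum. Cy5 alone called 3 after the low dose (Hmox1, Mt2 and Gclm, with Mt1 at 0.51 and Srxn1 at 0.57). Quantile normalization called 1 for male minus female RAR (Mt2 0.91, adjusted p = 0.0362) and 1 departure (Sod2), and normexp called 1 departure (Sod2). Dropping the most distant array of a group for each probe gave 7 of the 10 an interaction of sex and treatment, and by construction it shrinks the spread within groups. Over all probes it took the calls for male minus female RAR from 191 higher and 53 lower to 5680 and 4678. The share of all genes with an interaction under it was not counted, so the 7 are not read as a result about these genes. Leaving out 1 array gave 0 to 1 genes for male minus female RAR, the 1 being Mt2 without female RAR replicate 1 (0.64). With the mean of both Mt1 probes, RAR differed from the high dose by 0.16 (adjusted p = 0.275), from the low dose by 0.29 (adjusted p = 0.0346) and from the sum by -0.62 (adjusted p = 0.00459), the last past the threshold. The cause of these changes was not tested.

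Signs turned for values near 0. For Gclc these were RAR minus control (Cy5 alone -0.00439, slide block -0.0116), high dose (Cy5 alone -0.0919, slide block -0.125, leaving out 1 array -0.00909 to 0.0357) and low dose (most distant array dropped 0.0169, normexp 0.00831). For Gclm they were RAR minus high dose (quantile -0.177, leaving out 1 array -0.0190 to 0.107) and RAR minus low dose (most distant array dropped -0.0503, quantile -0.0101). For Nqo1 they were RAR minus control (quantile -0.164, slide block -0.0328) and low dose (normexp 0.0243). For Sod2, RAR minus control turned (normexp 0.0530, quantile 0.0162, slide block 0.0483), and for Txnrd1, RAR minus low dose (Cy5 alone -0.0876). The departure turned for Hmox1 (Cy5 alone 0.0136, mean of all probes 0.0975, normexp 0.0359, slide block 0.0102, leaving out 1 array -0.120 to 0.0347), Mt1 (Cy5 alone 0.00433), Sod1 (quantile -0.0653) and Srxn1 (most distant array dropped -0.00298, leaving out 1 array -0.0608 to 0.138).

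Cy5 alone moved the median of all probes by 0.523 for RAR minus control, 0.308 for RAR minus high dose, 0.286 for RAR minus low dose and 0.156 for the low dose, so its changes are relative to those shifts. The probes called higher and lower for RAR minus control were 6898 and 7603, and 4808 and 2413 with normexp and 18651 and 7780 with Cy5 alone. For the high dose they were 3277 and 3137, and 1990 and 913 with normexp. For the low dose they were 2836 and 2690, and 1684 and 672 with normexp. For RAR minus high dose they were 2946 and 2357, and 2029 and 334 with normexp, and for RAR minus low dose 2661 and 2389, and 2068 and 445 with normexp.

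Arrays of the same replicate number did not deviate together (r -0.164 to 0.222, with 4 of 84 pairs over 0.1, and 6 of 24 arrays closest to their own number), so the numbers were not taken to pair samples. With the replicate block the RAR count stayed at 5 and the change of Hmox1 at 2.89.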
